A study of Mus musculus with 23 samples.

Results

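Immediate-early genes are transcribed within minutes of a stimulus without new protein synthesis, and many of them encode transcription factors that act on later genes. In neurons they follow firing, calcium entry and cyclic AMP through factors such as CREB and SRF, and Fos protein is widely used as a mark of recently active neurons in the hypothalamus. Enzymatic dissociation of living tissue is known to induce many of the same genes, together with the inducible Hsp70 chaperones. A set of 33 such genes was described across the 23 single neurons of the series. They were chosen by name, with earlier results of these data known. Of the 33, 33 were present among the 23400 genes of the table. The genes comprised 7 AP-1 and ATF factors, 4 EGR factors, 3 NR4A nuclear receptors, 3 synaptic and activity genes, 3 IER genes, 4 feedback regulators, 4 growth arrest genes, 3 KLF factors and 2 heat shock genes.

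The cells formed 1 group. They were GFP-positive cells of the arcuate hypothalamus, the nucleus that holds the Pomc, Kiss1, Npy and Agrp neurons, taken from 2 young adult male vGLUT2-IRES-Cre::loxSTOPlox-L10-GFP mice of mixed background. Cre from the VGLUT2 locus, which encodes a vesicular glutamate transporter, switches on the GFP, so any cell with present or past VGLUT2 expression can carry it. The tissue was sectioned, digested with papain and triturated, and green cells were picked by hand into single tubes. All 23 cells went through that procedure, and the labels name no undissociated sample, no stimulus and no link from cell to mouse, so levels present before the dissection and levels set by it cannot be told apart, and no test or p-value was made. Titles place 15 cells in a set beginning JCb5.2 (set 1, cells 1 to 15) and 8 in a set beginning JCb6 (set 2, cells 16 to 23). Whether a set is a mouse, a day or a sequencing run is not given in the sources used here.

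Values are FPKM, fragments scaled by gene length and library size, and sums per cell ran from 379513 to 687511. Relative depth spanned 4.21-fold between cells, and 4054 (cell 17) to 8042 (cell 13) genes reached 1 FPKM. The 9 pan-neuronal markers summed to 1194 to 4465 FPKM. Of 7 markers of microglia, which can also make immediate-early genes, 3 reached 1 FPKM in at least 1 cell. Cx3cr1, C1qa, C1qb and Tmem119 stayed under 1 FPKM in every cell, and the list summed to a median of 0.477 and at most 8.86 FPKM. Astrocyte markers summed to 0.512 to 313 FPKM, with Aqp4, Slc1a3, Gja1 and Aldh1l1 under 1 FPKM in every cell, and oligodendrocyte markers summed to 0.431 to 82.8 FPKM, with Mog listed at 0. Red blood cell markers summed to 3.45 to 2395 FPKM (median 112, highest in cell 19), and 2 of the 4 reached 1 FPKM in 12 or more cells. Endothelial markers summed to at most 18.4 FPKM and mural markers to at most 4.54 FPKM.

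The promoters of 6 members that the results turn on are shown because they differ in the short sequences through which CREB and heat shock factor act. Each is the stretch of up to 250 bases before the RefSeq transcription start on GRCm38.p6 (mm10), read 5′ to 3′ on the gene's own strand. The stretch of Dusp1 was ended 203 bases in, where an exon of another annotated transcript begins. Across the cells Dusp1, Junb, Nr4a1 and Hspa1a varied with Fos (Spearman's rho of 0.60 to 0.88), and Jund did not (0.16). Capitals mark the cyclic AMP response element TGACGTCA or its core TGACG, which the whole element contains and which reads CGTCA on the other strand, the TATA box TATAAA, and the heat shock element, GAA and TTC facing each other across 2 bases of any kind with 1 base of any kind on either side. The windows are chr12:85473640-85473889 on the plus strand for Fos, chr17:26508520-26508722 on the minus strand for Dusp1, chr8:84978749-84978998 on the minus strand for Junb, chr15:101266596-101266845 on the plus strand for Nr4a1, chr17:34972157-34972406 on the minus strand for Hspa1a and chr8:70697489-70697738 on the plus strand for Jund.
Fos: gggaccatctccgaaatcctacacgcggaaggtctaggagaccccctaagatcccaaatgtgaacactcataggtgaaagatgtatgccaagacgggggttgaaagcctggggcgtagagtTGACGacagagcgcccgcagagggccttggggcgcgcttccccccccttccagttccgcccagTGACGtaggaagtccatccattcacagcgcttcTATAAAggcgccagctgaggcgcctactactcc
Dusp1: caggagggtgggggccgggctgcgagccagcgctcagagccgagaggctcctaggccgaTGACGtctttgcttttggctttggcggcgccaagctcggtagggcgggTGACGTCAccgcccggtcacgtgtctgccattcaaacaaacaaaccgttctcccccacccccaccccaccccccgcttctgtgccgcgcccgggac
Junb: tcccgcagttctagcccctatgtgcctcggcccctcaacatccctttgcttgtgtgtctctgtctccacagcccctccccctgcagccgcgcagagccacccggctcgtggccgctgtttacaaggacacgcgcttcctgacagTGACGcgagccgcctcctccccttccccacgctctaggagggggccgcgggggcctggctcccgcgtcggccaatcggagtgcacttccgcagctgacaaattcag
Nr4a1: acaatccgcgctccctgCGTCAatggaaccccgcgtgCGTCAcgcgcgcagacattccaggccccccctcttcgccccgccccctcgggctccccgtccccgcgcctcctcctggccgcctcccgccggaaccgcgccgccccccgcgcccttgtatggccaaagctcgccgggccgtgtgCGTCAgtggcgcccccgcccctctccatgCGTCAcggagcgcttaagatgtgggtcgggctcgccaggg
Hspa1a: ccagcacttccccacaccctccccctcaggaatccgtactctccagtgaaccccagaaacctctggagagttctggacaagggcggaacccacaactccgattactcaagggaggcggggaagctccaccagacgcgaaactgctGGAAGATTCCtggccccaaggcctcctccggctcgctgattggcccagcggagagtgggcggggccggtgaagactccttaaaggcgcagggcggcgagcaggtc
Jund: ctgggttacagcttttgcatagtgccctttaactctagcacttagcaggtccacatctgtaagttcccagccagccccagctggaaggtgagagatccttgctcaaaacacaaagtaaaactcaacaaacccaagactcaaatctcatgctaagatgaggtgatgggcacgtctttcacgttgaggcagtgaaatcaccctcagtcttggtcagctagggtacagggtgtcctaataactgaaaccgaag
The Jund window holds none of the searched letters, which says nothing of the factors that act on that gene.

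A promoter was found in the RefSeq table for 28 of the 33 members. None was found for Egr1, Egr3, Arc, Ier2 and Sik1, which were not searched. Sites more than 250 bases before a start were not searched for any member, so a missing match covers the window alone. The core TGACG on either strand lay in the windows of 16 of these 28 genes (57.1%), against 17.8% of 32851 promoter windows of the same length. Counted by window, 18 of the members' 33 windows held it. Member windows were also richer in G and C, with a median of 64.4% against 52.4% over all windows, and the part of base composition in the difference was not tested. The core was present in 5 of 8 members with a rho of at least 0.5 with Fos and in 10 of 19 below 0.5, Fos itself aside. It was found for Homer1 (rho 0.11) and Btg1 (0.03), and not for Jun (0.64), so the 6 promoters shown do not stand for the other members. The whole element TGACGTCA was found for Btg2 and Dusp1 (7.14%, against 1.55% of all windows). The AP-1 site TGANTCA and the EGR site GCGTGGGCG matched no member window, against 6.75% and 0.536% of all windows. The CArG box, where SRF binds, matched Egr2 and Zfp36 (7.14%, against 1.47%). The heat shock element matched Fosl2, Jun, Hspa1a, Hspa1b and Homer1 (17.9%, against 6.60%), and TATAAA matched Fos, Nr4a2, Btg1, Gadd45b and Gadd45g (17.9%, against 12.4%).

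The 33 members ranged from abundant to barely detected. A total of 8 reached 1 FPKM in all 23 cells, against 7.2% of all genes: Fos, Fosb, Jun, Junb, Jund, Egr1, Dusp1 and Gadd45g. For each of them the exact Clopper-Pearson interval of the share of cells was 85.2 to 100%, which covers sampling of cells only. In 12 or more cells, 20 members reached 1 FPKM, against 27.8% of all genes. All 33 did so in at least 1 cell, against 63.7% of all genes. A median of 100 FPKM or more was seen for 7 members, against 3.28% of all genes.

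**Figure D1:**
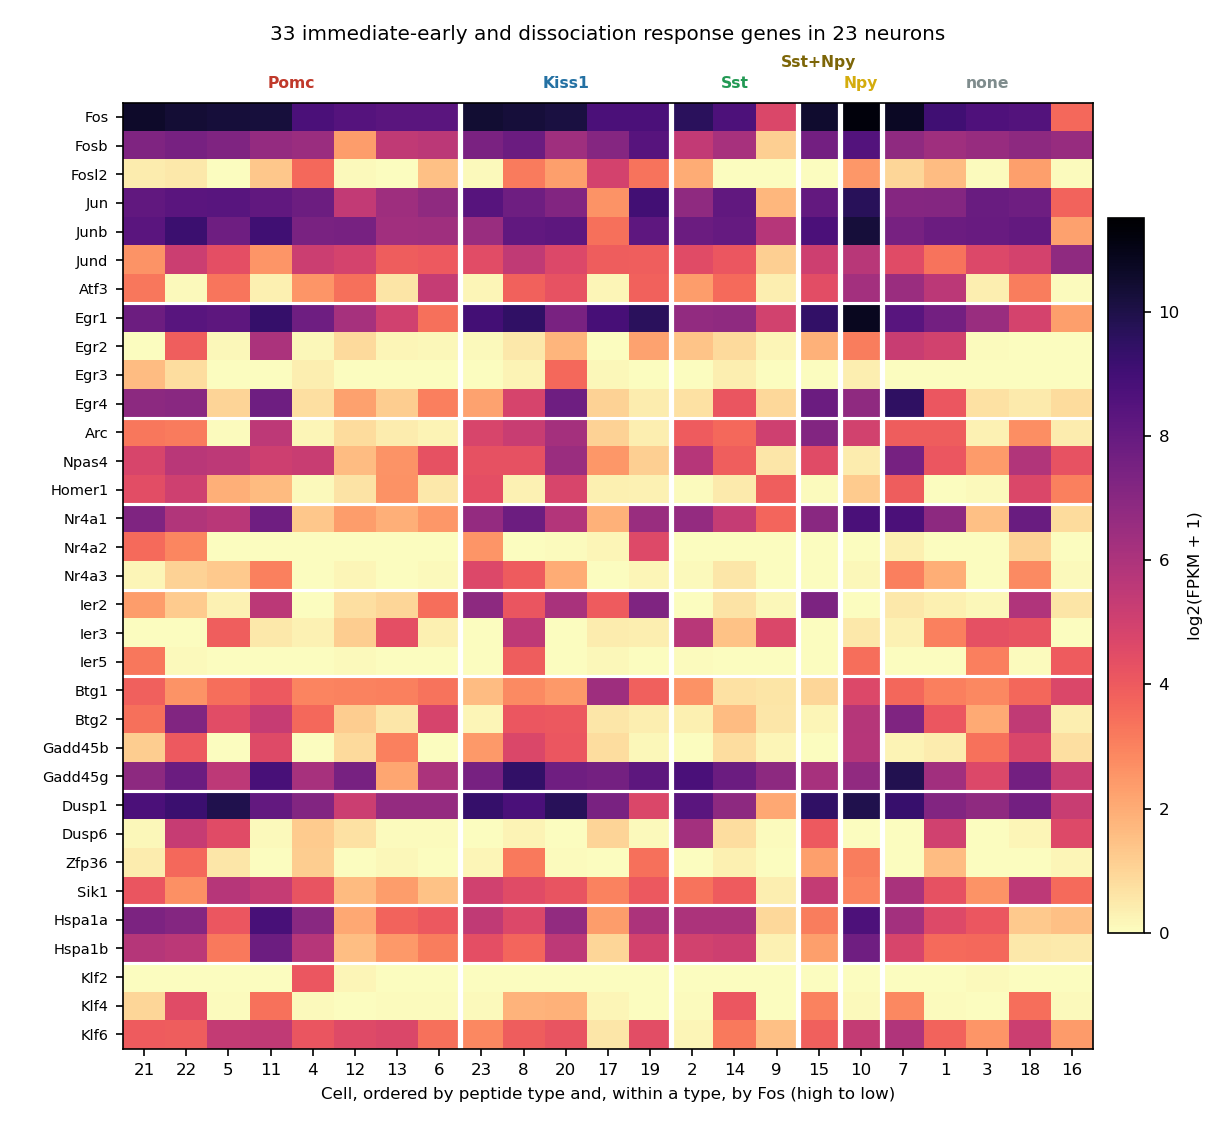
Level of each of the 33 members (rows, grouped by role) in each of the 23 cells (columns, grouped by the peptide gene each cell carries), as log2(FPKM + 1); darker is higher and cell numbers stand on the horizontal axis. Fos is dark in 21 of 23 columns, with cells 9 and 16 pale, while Klf2 and Egr3 are pale in nearly all.

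Among the AP-1 factors, Fos, which pairs with Jun proteins to form AP-1, had the highest median of all members, 524 FPKM. Cell 16 was lowest, at 11.2 FPKM, cell 9 next, at 25.0 FPKM, and cell 10 highest, at 2469 FPKM. Besides those low cells, 10 cells lay between 319 and 524 FPKM, cell 2 had 782, and 10 cells lay between 1124 and 2469 FPKM. Junb had a median of 229.6 FPKM (3.79 in cell 16 to 1225 in cell 10), and Jun 212 FPKM (2.36 in cell 9 to 819 in cell 10). Fosb, a Fos relative whose truncated product builds up with repeated activity, had a median of 102 FPKM (1.24 in cell 9 to 362 in cell 10). Jund, the Jun member known for steady rather than induced expression, had a median of 21.6 FPKM and the smallest spread of these, with an SD of 1.17 on the log2(FPKM + 1) scale against 1.81 for Fos. Atf3, a stress-induced factor, reached 1 FPKM in 15 cells (median 8.42, at most 87.6 FPKM in cell 7) and Fosl2 in 11 (at most 29.4 FPKM in cell 17).

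Of the EGR zinc-finger factors, Egr1 was high in most cells, with a median of 213 FPKM (3.96 in cell 16 to 1789 in cell 10). Egr4 had the widest spread of any member, with an SD of 3.05 on the log2(FPKM + 1) scale, a median of 3.79 FPKM, 7 cells at or above 100 FPKM and 722 FPKM in cell 7. Egr2 reached 1 FPKM in 9 cells, with 64.1 FPKM in cell 11 as its highest value. Egr3 did so in 2 cells, with 11.2 FPKM in cell 20 and 2.05 in cell 21. The orphan nuclear receptor Nr4a1 had a median of 57.0 FPKM (0.783 in cell 16 to 439 in cell 10). Its relatives Nr4a3 and Nr4a2 reached 1 FPKM in 9 and 5 cells. All 5 cells with Nr4a2 were in set 2 (5 of 8 cells, against 0 of 15 in set 1), with 23.3 FPKM in cell 19 as the highest.

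Dusp1, a phosphatase that switches off MAP kinases, had a median of 193 FPKM, from 3.25 in cell 9 to 966 in cell 10. Sik1, a salt-inducible kinase that restrains CREB coactivators, had a median of 15.5 FPKM (0.311 in cell 9 to 67.3 in cell 7). The MAP kinase phosphatase Dusp6 and the RNA decay factor Zfp36 reached 1 FPKM in 8 and 7 cells. Gadd45g, a growth arrest and DNA damage gene, had a median of 176 FPKM (3.34 in cell 13 to 933 in cell 7), whereas Gadd45b reached 1 FPKM in 10 cells. The antiproliferative genes Btg1 and Btg2 had medians of 7.24 and 9.70 FPKM. Npas4, a factor induced by calcium entry in neurons, had a median of 18.4 FPKM (0.359 in cell 10 to 186 in cell 7). Arc, a synaptic cytoskeletal protein, had a median of 8.41 FPKM (0.0464 in cell 5 to 144 in cell 15), and the synaptic scaffold gene Homer1 1.37 FPKM (0.0313 in cell 1 to 31.9 in cell 22). Homer1 has a short activity-induced transcript and longer steady ones, and the gene-level FPKM does not separate them.

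Of the remaining members, Klf6 had a median of 14.3 FPKM, Klf4 reached 1 FPKM in 8 cells and Klf2 only in cell 4, at 16.4 FPKM. Ier2 reached 1 FPKM in 11 cells, with 162 FPKM in cell 15 and 153 in cell 19. Ier3 did so in 10 cells and Ier5 in 5. Ier2 was found more often in set 2 (7 of 8 cells, against 4 of 15 in set 1), and Ier3 less often (1 of 8, against 9 of 15). The inducible Hsp70 genes Hspa1a and Hspa1b had medians of 24.2 and 12.1 FPKM, and both were highest in cell 11, at 458 and 219.6 FPKM. They are near-identical copies on chromosome 17. In their transcripts 1716 of the 2918 stretches of 50 bases of Hspa1a also occur in Hspa1b, and 247 of the 250 bases before their starts are the same. The Hspa1a value was 1.45 to 4.58 times the Hspa1b value in every cell, with a median of 2.15, and the split of reads between the copies is uncertain.

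The cells differed widely in the summed level of these genes. The summed FPKM of the 33 members was lowest in cells 9 and 16, at 320 and 419 FPKM, and highest in cell 10, at 9278 FPKM, a 29.0-fold range with a median of 2464 FPKM. This was 0.0685 to 1.88% of a cell's FPKM (median 0.494%), and Fos alone made up 2.66 to 41.6% of the sum (median 29.6%). Cell 10 had the highest level of 8 members (Fos, Fosb, Jun, Junb, Egr1, Nr4a1, Dusp1 and Gadd45b) and cell 7 of 7 others (Egr4, Npas4, Atf3, Btg2, Klf6, Gadd45g and Sik1). Npas4 was nevertheless lowest of all in cell 10. Across the 23 cells, Spearman's rho of relative depth with Fos was -0.49 and with the sum -0.43. Without cells 16 and 9 these values were -0.44 and -0.37. The summed markers of microglia, oligodendrocytes and endothelial cells had rho with Fos of 0.47, 0.29 and 0.18. Those of mural cells, astrocytes and red blood cells had 0.08, 0.02 and -0.08. Without cells 16 and 9 the 6 marker values were, in this order, 0.37, 0.46, 0.34, 0.24, 0.12 and -0.06. The part of depth and of RNA from these other cell types in the levels was not tested.

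A member was said to follow Fos where Spearman's rho of its FPKM with Fos across the 23 cells was at least 0.5, and not to follow it below 0.2. These are descriptions over cells that share mice, title set and dissociation. Of the 32 other members, 10 followed Fos, and all 10 were among the 19 that reached 1 FPKM in 12 or more cells. Of the 6479 genes that reached it as often, 0.741% followed Fos. The median rho of those 32 was 0.38, and that of the 19 that reached 1 FPKM in 12 or more cells was 0.56, against -0.03 over the 6479 genes. The 10 were Dusp1 (0.88), Egr1 (0.78), Nr4a1 (0.70), Hspa1a (0.68), Fosb (0.66), Jun (0.64), Egr4 and Hspa1b (0.62 each), Junb (0.60) and Sik1 (0.56). They came from 5 of the roles: AP-1, EGR, NR4A, the feedback regulators and heat shock. Dusp1 had 954 and 966 FPKM in cells 5 and 10, where Fos had 1226 and 2469 FPKM, and 3.25 FPKM in cell 9, where Fos had 25.0 FPKM.

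**Figure D2:**
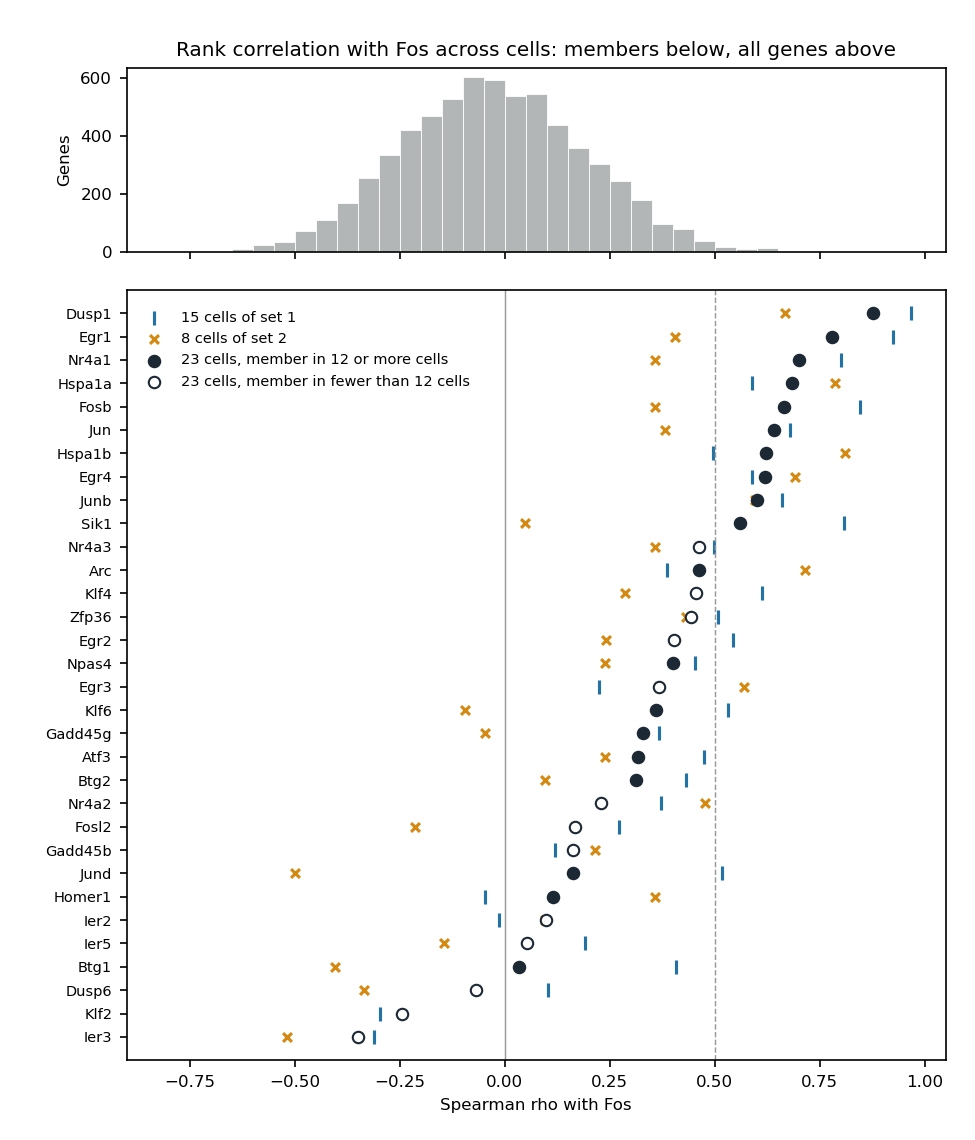
Spearman's rho with Fos for the 32 other members across 23 cells (circles, open where the member reached 1 FPKM in fewer than 12 cells), across the 15 cells of set 1 (bars) and the 8 cells of set 2 (crosses); the upper panel shows how many of 6479 genes lie in each interval of rho. The 10 members right of the dashed line at 0.5 run up to 0.88 for Dusp1, and 48 of the 6479 genes reach that line.

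Leaving out cells 16 and 9, the farthest from the median of Fos, 10 members reached 0.5 (1.14% of the 6479 genes), with Arc (0.58) among them and Junb at 0.49. Within set 1, 14 of the 32 members reached 0.5, 11 of them among the 19 found in 12 or more cells (3.49% of the 6479 genes). Dusp1, Egr1, Fosb, Sik1 and Nr4a1 had rho of 0.97, 0.93, 0.85, 0.81 and 0.80 there. Within the 8 cells of set 2, 7 members reached it, 6 of them among those 19 (7.89% of 6478 genes). In set 2, Sik1 had a rho of 0.05, Egr1 0.40 and Nr4a1 0.36. The members at or above 0.5 in both sets were 4: Dusp1 (0.97 in set 1 and 0.67 in set 2), Junb (0.66 and 0.60), Hspa1a (0.59 and 0.79) and Egr4 (0.59 and 0.69).

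Of the 32 members, 10 did not follow Fos. Over the 19 found in 12 or more cells this was 3, against 84.8% of the 6479 genes below 0.2. The 3 were Jund (0.16), Homer1 (0.11) and Btg1 (0.03). The others were Ier3 (-0.35), Klf2 (-0.25), Dusp6 (-0.07), Ier5 (0.05), Ier2 (0.10), Gadd45b (0.16) and Fosl2 (0.17), each under 1 FPKM in at least 12 cells, so that ties and low values limit their rho. Jund was highest in cell 16, at 111.5 FPKM, where Fos was lowest, and lowest in cell 9, at 1.20 FPKM, where Fos was next lowest. Its rho was 0.52 in set 1 and -0.50 in set 2. Homer1 was 19.6 to 31.9 FPKM in cells 18, 20, 21, 22 and 23 of set 2, and above 10 FPKM in only cells 7 and 9 of set 1. Between the limits lay 12 members, with Nr4a3, Arc, Klf4, Zfp36, Egr2 and Npas4 between 0.40 and 0.46.

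**Figure D3:**
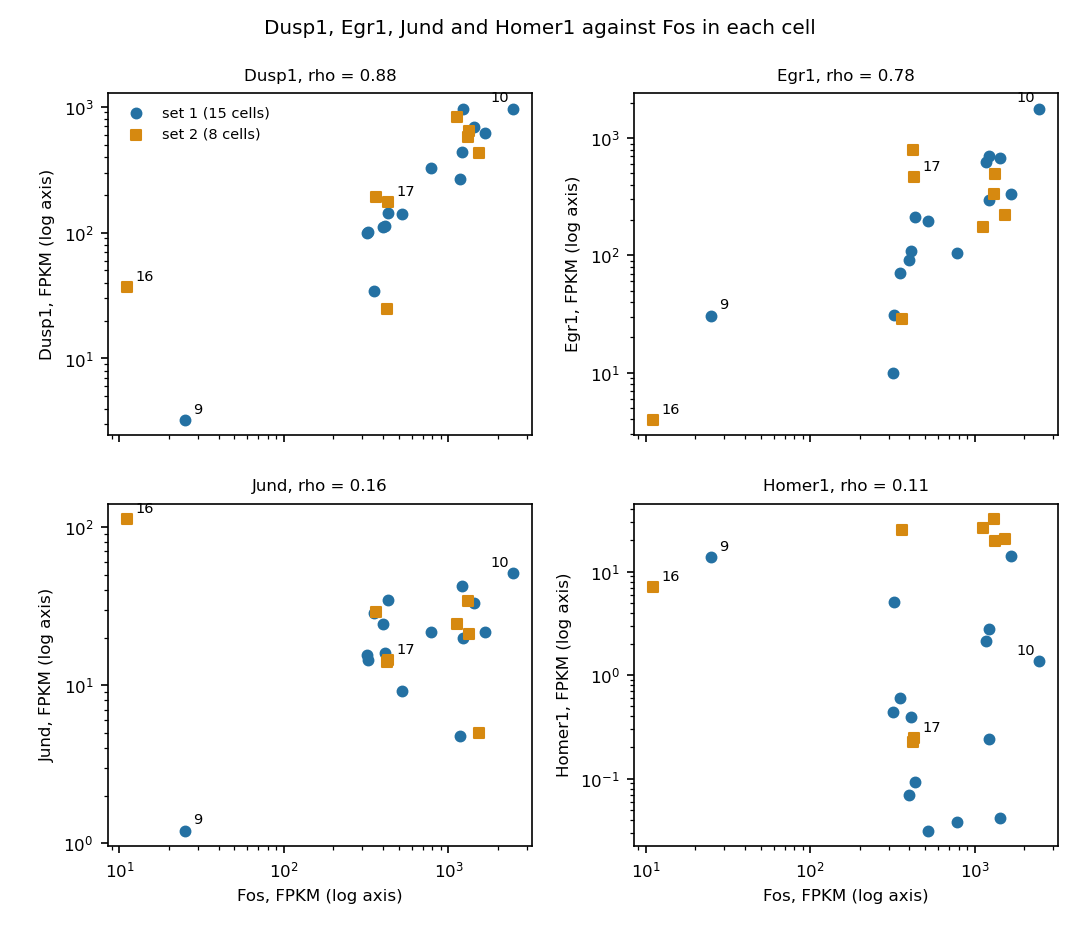
Dusp1, Egr1, Jund and Homer1 (vertical, FPKM on a log axis) against Fos (horizontal, FPKM on a log axis) in each of the 23 cells, with circles for set 1, squares for set 2 and the numbers of cells 9, 10, 16 and 17. Dusp1 and Egr1 run along the diagonal (rho 0.88 and 0.78), whereas Jund and Homer1 (0.16 and 0.11) do not, with cell 16 lowest in Fos and highest in Jund.

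Single cells departed from the common order. Cell 16 had 11.2 FPKM of Fos, 12.5 of Jun, 3.79 of Junb and 3.96 of Egr1, but 93.6 FPKM of Fosb, close to the median of 102, and 36.9 FPKM of Dusp1. Cell 17, with the fewest detected genes, had Fos at 428 and Egr1 at 464 FPKM, but Jun at 4.98 and Junb at 9.84 FPKM, and it had the highest Fosl2 (29.4 FPKM) and Btg1 (83.5 FPKM). Cell 9 was low in most members, yet had 115 FPKM of Gadd45g, 32.3 of Arc, 24.8 of Ier3 and 13.7 of Homer1. Cell 19 had 421 FPKM of Fos and 24.9 FPKM of Dusp1 beside the next highest Egr1 (796 FPKM), Jun (508 FPKM) and Fosb (339.7 FPKM) after cell 10.

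Among the 20 members found in 12 or more cells, the median rho of the 190 pairs was 0.31, and 42 pairs (22.1%) reached 0.5, against 1.42% of all pairs of the 6480 genes found as often (median 0.03). Pairs of the same role and of different roles had the same median, 0.31. Average linkage of 1 minus rho, divided at a distance of 0.5, put Fos, Dusp1, Fosb, Egr1, Hspa1a, Hspa1b, Jun and Junb together. It also formed a trio of Egr4, Arc and Nr4a1 and the pairs Npas4 with Sik1 and Btg2 with Klf6, and left Btg1, Jund, Homer1, Atf3 and Gadd45g on their own. Beside the Hsp70 copies, at 0.99, the closest pairs were Fos with Dusp1 (0.88), Fosb with Egr1 (0.80), Fos with Egr1 (0.78), Fosb with Jun (0.72) and Jun with Junb (0.71). Fosb with Egr1 and Fosb with Jun held within both sets, at 0.90 and 0.78 in set 1 and at 0.81 each in set 2. Fos with Dusp1 had 0.97 in set 1 and 0.67 in set 2. Some other pairs of the Fos group did not hold in set 2. Fos with Egr1, Egr1 with Dusp1 and Fosb with Dusp1 had 0.93, 0.89 and 0.85 in set 1. In set 2 they had 0.40, -0.07 and -0.21. Arc with Egr4 was at 0.61, and Arc with Btg1 was the lowest pair, at -0.33.

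**Figure D4:**
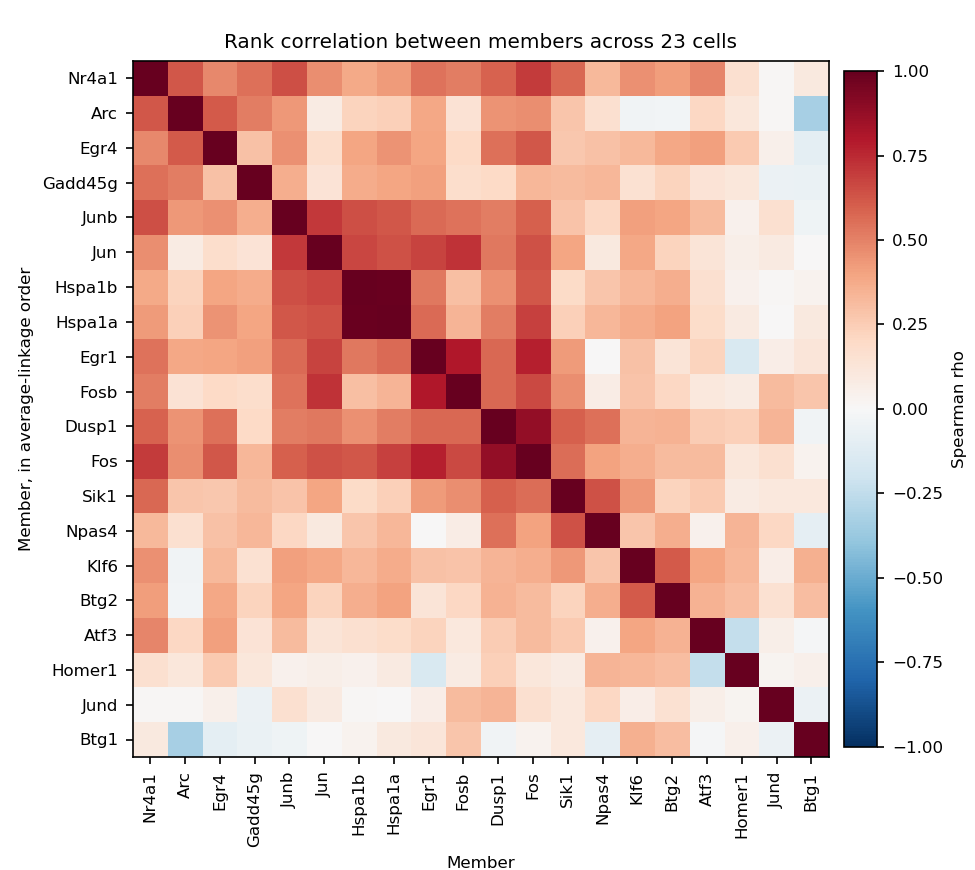
Spearman's rho between each pair of the 20 members that reached 1 FPKM in 12 or more cells, across 23 cells, with members in average-linkage order on both axes (red positive, blue negative). The block around Fos, Dusp1, Fosb, Egr1, Jun, Junb and the Hsp70 copies is red, and Btg1, Jund and Homer1 at the lower right stay pale.

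Peptide type was set by peptide genes that are no members, at 1000 FPKM or more of Pomc or Npy and 500 FPKM or more of Kiss1 or Sst. This gave 8 Pomc, 5 Kiss1, 4 Sst and 2 Npy cells, with cell 15 counted as both Sst and Npy, and 5 cells of no type. The Pomc, Kiss1 and Sst cells and those of no type overlapped in summed level. Npy cell 15 lay within the range of the Pomc cells and of those of no type, and Npy cell 10 above all others. The 8 Pomc cells had a lowest sum of 775, a median of 2603 and a highest of 4920 FPKM. Their median was 1314 FPKM over the 6 cells of set 1 and 3998 FPKM over the 2 of set 2. The 5 Kiss1 cells had 1572, 3150, 3663, 3691 and 4339 FPKM. The 4 Sst cells had 320, 1716, 2464 and 4593 FPKM, the Npy cells 4593 and 9278 FPKM, and the cells of no type 419, 1312, 1772, 1997 and 5899 FPKM. The Sst and Npy cells were all in set 1 and 4 of the 5 Kiss1 cells in set 2, so type and set cannot be told apart for them.

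**Figure D5:**
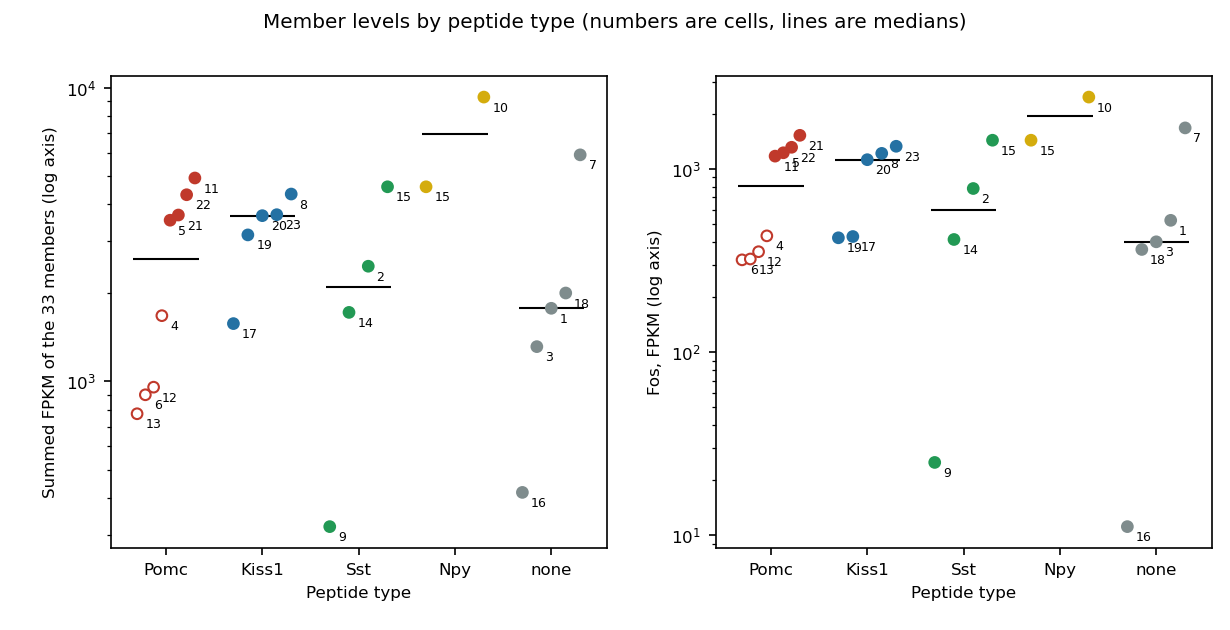
Summed FPKM of the 33 members (left) and FPKM of Fos (right) in each cell by peptide type, on log axes, with cell numbers and the median of each type as a line; cell 15 stands under both Sst and Npy, and open circles are the Pomc cells with at least 10000 FPKM of Cartpt. The Pomc, Kiss1, Sst and untyped cells overlap, and Npy cell 15 lies within the range of the Pomc and untyped cells. In summed level the Pomc cells fall into a lower run of 775 to 1672 and an upper run of 3534 to 4920 FPKM.

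For Fos the median was 803 FPKM in Pomc cells (319 to 1527), 1124 in Kiss1 cells (421 to 1330), 597 in Sst cells (25.0 to 1435), 1952 in Npy cells (1435 and 2469) and 400.3 in cells of no type (11.2 to 1676). Type accounted for a median of 13.1% of the members' variance in log2(FPKM + 1), and of 12.7% for the 20 members found in 12 or more cells. Over the 6480 genes found as often it was 15.4%. This covered 22 cells in 4 groups, Pomc, Kiss1, Sst and no type, with cell 15 counted as Sst. Npy cell 10, which had the highest Fos and the highest sum, was left out. Btg1 (43.9%) and Ier2 (37.7%) had the largest shares and Egr4 the smallest (0.735%), with Fos at 13.5%. Ier2 was 14.6, 16.6, 66.0, 115 and 153 FPKM in the Kiss1 cells, and had a median of 1.14 FPKM in Pomc cells, where 4 of 8 were under 1 FPKM. Btg1 was 0.509, 0.637, 0.974 and 5.23 FPKM in the Sst cells and 4.98 to 15.0 FPKM in the Pomc cells. Arc had medians of 26.2 FPKM in Kiss1 cells (0.306 to 72.9) and 0.540 FPKM in Pomc cells (0.0464 to 46.4), and these groups overlapped.

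Within the Pomc cells, the 4 with at least 10000 FPKM of Cartpt (cells 4, 6, 12 and 13) had summed levels of 775 to 1672 FPKM, against 3534 to 4920 FPKM in cells 5, 11, 21 and 22, a split chosen after the values were seen. Of the 33 members, 8 were lower in every Cartpt-highest cell than in every other Pomc cell (Fos, Fosb, Jun, Junb, Egr1, Nr4a1, Nr4a3 and Dusp1) and none was higher. Among members and genes that reached 1 FPKM in 4 or more of the 8 cells, 7 of 21 members were lower without overlap, against 2.19% of 7585 genes, and 0 were higher, against 2% of those genes. The median log2 difference, Cartpt-highest minus other, was -1.88 for members and -0.01 for those genes. Fos was 319, 323, 353 and 431 FPKM in the Cartpt-highest cells, against 1175, 1226, 1314 and 1527 FPKM in the other Pomc cells. Nr4a1 was 1.53 to 4.59 FPKM against 48.9 to 208.8 FPKM, and Egr1 9.92 to 213 FPKM against 219.5 to 629 FPKM. Jund overlapped, at 14.3 to 34.3 FPKM against 4.80 to 33.9 FPKM. Pomc itself separated the same cells, at 3214 to 9534 FPKM in the Cartpt-highest cells against 1488 to 2378 FPKM in the others. A split by Cartpt and a split by Pomc level therefore cannot be told apart here. All 4 Cartpt-highest cells were in set 1, whereas cells 21 and 22 were in set 2, and relative depth was 0.695 to 1.35 against 0.529 to 1.02. Microglia markers summed to 0.102 to 0.997 FPKM in the Cartpt-highest cells and 0.491 to 6.39 FPKM in the others, and mural markers to 0.183 to 0.341 against 0.470 to 4.54 FPKM. Red blood cell markers summed to 6.65 to 92.9 against 41.3 to 478 FPKM, endothelial markers to 0 to 0.661 against 0 to 18.4 FPKM, oligodendrocyte markers to 0.431 to 33.8 against 4.22 to 82.8 FPKM, and astrocyte markers to 30.8 to 257 against 42.1 to 96.4 FPKM. Their part in the difference was not tested.

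Outside the 33 members, Dnajb1, the Hsp40 partner of Hsp70, was the gene whose order was most like that of Fos over the 23 cells (rho 0.80, 0.77 in set 1 and 0.74 in set 2). It had a median of 67.3 FPKM, with 4.10 FPKM at the lowest and 994 FPKM in cell 10. The next were Ep400 (0.65), Proca1, Tsen34 and Ppp1r15a (0.64 each), Gnb4 and Chd2 (0.62 each), and Celf3, Pcsk2 and Cops3 (0.61 each). Ppp1r15a, the stress-induced Gadd34, had a median of 56.2 FPKM.

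Related gene lists mostly did not reach 0.5. Of 20 other rapid-response genes, 1 followed Fos (Ppp1r15a), with a median rho of 0.16. The list's most abundant genes besides it, Rheb, Nfkbia and Plk2, had rho of -0.06, 0.24 and 0.31. Of 14 upstream factors and kinases 0 followed, at a median of 0.02, with Camk2a, Crtc1 and Rps6ka2 at 0.19, -0.03 and 0.37. Of 8 later activity genes 0 followed, at a median of -0.12, and the secreted proteins Scg2 and Vgf had -0.29 and -0.22. Of 11 other heat shock genes 1 followed (Dnajb1), and the abundant chaperones Hspa8, Hsp90ab1, Hspe1 and Hspa5 had 0.11, -0.02, 0.23 and -0.03. Of 8 housekeeping genes 0 followed, at a median of -0.07, with Actb, Ppia, Eef1a1 and Rpl10a between -0.26 and 0.03. All these shares are to be read beside the 0.741% of genes that followed Fos, which covers only genes that reached 1 FPKM in 12 or more cells. In the lists, in the order given, 10 of 20, 8 of 14, 4 of 8, 10 of 11 and 7 of 8 genes did so. Ties and low values limit the rho of the rest. Cyr61, Ptgs2 and Crh were at 0 in every cell and had no rho, so absence cannot be told from not following.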

How the data were processed

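RNA of single GFP-positive neurons was amplified by SmartSeq2 before NuGen Ovation Rapid library preparation, per the labels' protocols. CASAVA 1.8, TopHat and Cufflinks and the build mm10 are named, per the submitters' processing notes. Versions of the aligner and quantifier, and the annotation, are not stated in those notes. The authors deposited FPKM per gene and cell. The table gives no read counts, so depth is known only relatively, from the steps between low values, which were tested on simulated data. Without molecular identifiers, amplified copies count as reads.

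Leftover spreadsheet rows (12) and identical rows (286) were removed and rows of 1 symbol summed, which gave 23400 genes. Correlations used genes at or above 1 FPKM in 12 or more of 23 cells with a locus of at least 300 bp. Each cell is 1 sample and no test was made. Pearson's r and the share of variance used log2(FPKM + 1). Promoters came from RefSeq and exons from GENCODE. Members, lists, type thresholds and the named genes (all 33 members, the abundant genes of each list and the 10 genes most like Fos) were chosen with earlier results of these data known. Alternatives covered thresholds, scaling, depth, pseudocount, title sets and the cells left out. Python 3.11.15 with pandas 2.3.3 and scipy 1.17.1 was used. A gene of the list of upstream factors is not reported here by name.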

Additional observations from a re-analysis of the deposited data

Results flagged for a closer look

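Among the 5 cells that reached no peptide threshold, cell 7 stood apart in the summed level of the 33 genes, at 5899 FPKM, with the other four at 419, 1312, 1772 and 1997 FPKM. In FPKM, its gap to the nearest cell was large for the range of the group. It had the highest Egr4 (722 FPKM), Npas4 (186 FPKM) and Gadd45g (933 FPKM) of all cells, at a relative depth of 0.836. A total of 10 groups and measures were looked at. The nominal rate of such marks by chance is about 1 in 20, which may not hold for FPKM sums of 5 single cells that are no replicates. The mark is a pointer and no test.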

How the results depend on the processing

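Of 76 alternative values, 66 stayed within 1.5 times (counts) or within 1 SD of the cells, members or pairs behind them (medians). That SD is wide for the type medians. No median rho changed sign, and counts and summed FPKM cannot do so by construction. The 8 members found in all 23 cells became 1 at 5 FPKM, 1 at 10 FPKM and 0 where a cell also had to reach 5% of the member's highest value. The 10 that followed Fos became 6 in set 2 alone, counted over members found in 12 or more cells, and 9 to 12 under the other settings, with 11 after depth and detected genes were regressed out. The median rho with Fos ran from 0.36 to 0.59 and that of member pairs from 0.20 to 0.39. Rescaling each cell to 1000000 put the median sums at 5480 (Pomc), 7604 (Kiss1), 5107 (Sst), 15149 (Npy) and 3989 (no type), a change of scale by construction. Without Fos the Kiss1 median was 2539 FPKM. The Pomc median of 2603 FPKM was 955 with the type thresholds doubled, 1492 with them halved, 1314 in set 1 alone and 3998 in set 2 alone, and 1698 without Fos. The no-type median of 1772 FPKM was 3150 with thresholds doubled. The Cartpt-highest Pomc cells were lower for 8 members after rescaling and for 11 within set 1, both added after the data were seen. Within set 1 the other Pomc cells were only cells 5 and 11, and groups of fewer cells separate more easily. No share over all genes stands beside either count, so the 11 cannot be read as a stronger result than the 8. Set 2 holds no Sst or Npy cell, so those medians could not be computed there. No paired analysis was possible because there is 1 group. The table gives no counts, so absolute depth is unknown and no counting interval could be given for low values.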
